A study of Mus musculus with 12 samples.

Results

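The prolactin receptor and 5 nuclear receptors for steroid hormones were followed in neuron-enriched fractions of 2 kinds of mouse sensory ganglia, the trigeminal ganglia (TG) of the head and the dorsal root ganglia (DRG) of the spine. The 6 genes are Prlr (prolactin receptor), Esr1 and Esr2 (oestrogen receptors alpha and beta), Pgr (progesterone receptor), Nr3c1 (glucocorticoid receptor) and Nr3c2 (mineralocorticoid receptor). They were taken by symbol from the 22609 genes counted in each library, and all 6 were found. The 12 libraries form 4 groups of 3, with TG and DRG libraries from each sex. All mice were naive C57BL animals with no transgene or treatment, and the labels give an age of 3 to 4 months, whereas the study's methods give a younger range. The methods add that the strain was C57BL/6J, that the females were in the estrous phase and that lumbar DRG of both sides were used. The neuron fraction was taken from a Percoll density gradient, so it was enriched for neurons but not pure. The design names 3 males and 3 females as the source of both ganglia, and no label says whether a TG and a DRG library with the same number came from 1 animal. Nothing further says how the libraries of a group were kept separate, so p-values measure the spread between these samples, which may be technical in part.

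Prolactin is a pituitary hormone whose receptor belongs to the cytokine receptor class and acts through the kinase JAK2 and the transcription factors STAT5A and STAT5B. It is made in forms with long and short cytoplasmic tails, which counts per gene cannot separate. The steroid receptors are transcription factors that wait in complexes with HSP90 chaperones and, once they bind a hormone, act on response elements in DNA. Nr3c1 and Nr3c2 can both bind corticosterone, the main glucocorticoid of mice. In sensory neurons, oestrogens, progesterone and prolactin are known as modulators of nociception.

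Reads assigned to genes ran from 7511765 to 15396090 per library. A gene was taken as detected above a floor of 3 counts. That floor lay between 0.195 and 0.399 CPM (read counts scaled to a common total per library). All 9 sensory neuron markers were above the floor in all 12 libraries. Markers of satellite glia, Schwann cells, macrophages, fibroblasts and vessels were also present. Of 5 red blood cell markers, Alas2 was above the floor in all 12 libraries. The other 4, globin genes with similar copies, were at 0 everywhere, and reads that align to several of them may not be counted. A pair of libraries stood apart from the rest, female DRG 1 on the first principal component (25.1% of the variance) and female TG 3 on the third (14.6%).

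The 6 genes lay on 6 chromosomes of the mm9 build, all as protein-coding genes, and the values below cover all exons of a gene. Prlr spans chr15:10106993-10303504 on the plus strand, and its exons share 155 bases with the same-strand gene Agxt2. Esr1 spans chr10:5340927-5734948 and Esr2 chr12:77221406-77278246, both on the minus strand. Pgr spans chr9:8900419-8965425 on the plus strand. Nr3c2 spans chr8:79423341-79768911 on the plus strand and has 247 bases of antisense overlap with Gm10649, so reads in that stretch cannot be assigned for certain where strand was ignored in counting.

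Upstream windows are shown for Nr3c2, the receptor with TG and DRG libraries that did not overlap, and for Sgk1, a glucocorticoid-response gene that passed the test between ganglia. Each holds the 250 bases before a RefSeq start site in the GRCm38.p6 build, read from 5′ to 3′ on the plus strand, and capitals mark single arms of steroid receptor elements. The Nr3c2 window is chr8:76902080-76902329 and the Sgk1 window, that of the fifth of 6 listed start sites, is chr10:21993640-21993889.
Nr3c2: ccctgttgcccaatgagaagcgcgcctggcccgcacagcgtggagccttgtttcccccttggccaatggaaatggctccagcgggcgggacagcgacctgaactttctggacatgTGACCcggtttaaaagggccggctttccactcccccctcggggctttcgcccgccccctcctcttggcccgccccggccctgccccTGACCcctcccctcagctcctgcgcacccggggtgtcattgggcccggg
Sgk1, start site 5: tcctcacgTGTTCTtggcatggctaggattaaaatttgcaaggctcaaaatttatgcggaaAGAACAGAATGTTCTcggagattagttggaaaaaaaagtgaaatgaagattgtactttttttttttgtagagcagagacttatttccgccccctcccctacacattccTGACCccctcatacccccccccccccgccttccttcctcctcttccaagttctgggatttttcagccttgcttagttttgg
The Sgk1 window held the full palindrome of AGAACA and TGTTCT with 3 bases between them, the consensus shared by glucocorticoid and mineralocorticoid receptors, starting 189 bases before the start site. Both arms are capitals within that match, and a further TGTTCT stood 242 bases before the start. The palindrome occurred in 3 of 32851 mouse promoter windows of the same length (0.00913%), and a single arm in either orientation in 16.1%. In the Nr3c2 window the arm TGACC of the oestrogen element (GGTCA on the other strand) stood 135 and 49 bases before the start, and 35.2% of all windows held it. The full oestrogen element, GGTCA and TGACC with 3 bases between them, was present in 0.0639% of windows. It was in none of the windows of Prlr, Esr1, Esr2, Pgr, Nr3c2 or Sgk1. No window was available for Nr3c1. The arm GGTCA also stood 238 and 75 bases before the Esr2 start, and TGTTCT 12 bases before start site 2 of Prlr. The windows of Esr1 and Pgr held no arm of either element. The matches are descriptions of letters on either strand, not of binding, and the other 5 Sgk1 start sites held no palindrome.

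Per kilobase of exon, Nr3c1 was the most abundant of the receptors and Esr2 the least. Mean RPKM (CPM per kilobase of the union of exons) over the 12 libraries was 15.6 for Nr3c1, above 83.1% of 21679 genes with a length. Nr3c2 followed at 5.48 (above 65.4% of genes), Pgr at 2.38 (52.2%) and Esr1 at 1.14 (43.9%). Prlr had a mean of 0.547 RPKM (38.1%) and Esr2 of 0.0524 RPKM (26.3%). The order was the same with the length of the longest coding transcript, with 18.0, 5.999, 3.71, 2.45, 0.856 and 0.0525 RPKM. Neighbours overlapped in single libraries, since Pgr ran from 1.17 to 4.05 RPKM and Esr1 from 0.399 to 2.41 RPKM, but Nr3c1, with a lowest value of 9.98 RPKM, was above the highest Nr3c2 value of 9.26 RPKM. In bulk fractions, fewer cells with a transcript and less transcript per cell cannot be told apart.

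**Figure D1:**
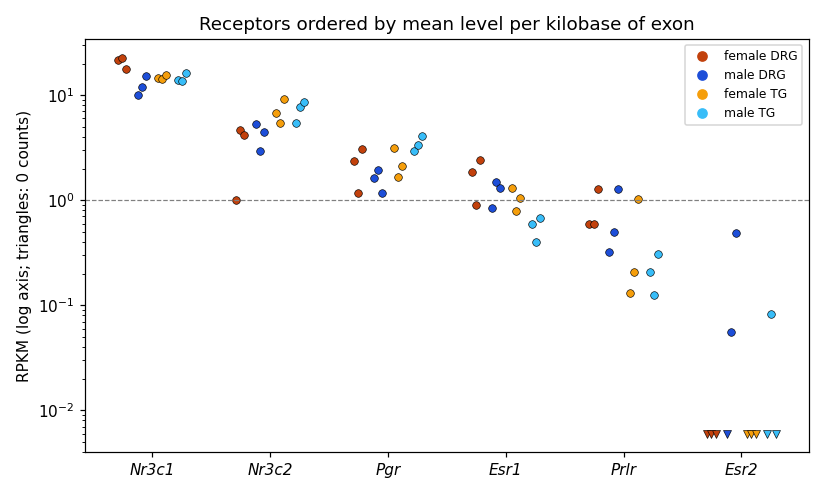
RPKM of each receptor (log axis) in the 12 libraries, coloured by group, with genes ordered by their mean and the dashed line at 1 RPKM; downward triangles at the bottom are libraries with 0 counts. Nr3c1 lies at 9.98 RPKM or above in every library, and Esr2 has 9 libraries at 0.

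Prlr had low levels and the widest spread of the 5 receptors that could be tested, and no comparison of it passed an adjusted p of 0.05. In female DRG 1, 2 and 3 its level was 9.15, 9.25 and 19.6 CPM, and in male DRG 1, 2 and 3 it was 4.95, 7.69 and 20.0 CPM. In female TG it was 2.02, 3.21 and 15.8 CPM, and in male TG 3.19, 1.93 and 4.81 CPM. The library numbered 3 was the highest of its group in all 4 groups, by a factor over the next library of 2.12 in female DRG, 2.60 in male DRG, 4.93 in female TG and 1.51 in male TG. In each group the library numbered 3 also had the lowest summed CPM of the 6 satellite glia markers, for example 2546 against 5515 and 5789 CPM in female DRG and 2946 against 5686 and 5837 CPM in male DRG. The part of that difference in the Prlr levels was not tested. Summed neuron marker CPM was highest in the library numbered 3 in female DRG (9488) and female TG (7658) but lowest in it in male DRG (7801) and male TG (5364).

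Averaged over sexes, Prlr was lower in TG than in DRG by a log2 fold change of -1.29 (SE 0.52), with an adjusted p of 0.420 (0.0227 before adjustment) (edgeR quasi-likelihood test, Benjamini-Hochberg over 14829 genes). Without female TG 3, the only TG library within the DRG range, the fold change was -1.996 and passed with an adjusted p of 0.0427, a setting chosen among 12 that each left out 1 library. By mean level the groups ranked as female DRG (12.7 ± 6.03 CPM, SD, n = 3), then male DRG (10.9 ± 8.02), then female TG (7.03 ± 7.66), then male TG (3.31 ± 1.44), and no neighbours in it differed by more than the larger SD. The sexes overlapped in both ganglia. Female over male, the log2 fold change was 1.12 (SE 0.78, adjusted p = 0.428) in TG and 0.20 (SE 0.59, adjusted p = 0.940) in DRG. The TG value rests on female TG 3, and without that library it was -0.33. The difference between the sex effects of the ganglia was 0.87 (SE 1.02, adjusted p = 0.9998).

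The kinase and transcription factors that carry the receptor's signal had higher levels per length than Prlr. Stat3 was the most abundant of the 15 listed genes at 26.9 RPKM, with Ptpn11, a phosphatase that relays receptor signals, at 25.5 RPKM and Jak2 at 6.98 RPKM. Prolactin itself (Prl) had at most 3 counts in a library. Of the 13 genes tested in TG, 0 passed an adjusted p of 0.05, where 0% of the 14004 genes tested did so. All 13 had a positive female over male value, with a median log2 fold change of 0.56 beside 0.05 over all genes, and 5 of them had an unadjusted p under 0.05, as did 20.7% of all genes. After correction for GC content and gene length 10 of 13 were positive and the median was 0.12. By DESeq2 2 of the 13 passed, and 7 did in the libraries numbered 1 and 2, settings in which 817 and 6251 of all genes passed. Stat5b, a main transducer of the receptor, had the smallest p, with 56.3 ± 8.10 CPM in female and 27.7 ± 5.29 CPM in male TG (SD, n = 3), a log2 fold change of 1.07 (SE 0.25) and an adjusted p of 0.154. Its relative Stat5a had 11.3 ± 2.42 and 4.61 ± 0.353 CPM, a log2 fold change of 1.35 (SE 0.41) and an adjusted p of 0.158. In DRG 9 of 13 were positive, with a median of 0.11 beside 0.02, and 1 gene had an unadjusted p under 0.05, as did 11.8% of all genes. That gene was Socs3, a feedback inhibitor of cytokine receptors, with 42.4 ± 11.1 CPM in female and 22.5 ± 5.11 CPM in male DRG and an adjusted p of 0.349. Between ganglia 14 genes were tested and 0 passed, where 0.964% of all genes did, and their median was -0.08 beside -0.01 over all genes.

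Esr1 was detected in every library and Esr2 in 2 of 12. In female DRG 1, 2 and 3 the Esr1 level was 25.4, 12.3 and 32.9 CPM, and in male DRG it was 11.5, 20.4 and 17.7 CPM. In female TG it was 18.0, 10.8 and 14.4 CPM, and in male TG 8.19, 5.45 and 9.33 CPM. Each female TG library was above each male TG library, while the sexes overlapped in DRG. Libraries of the sexes failed to overlap, with females higher, in 11.2% of all genes tested in TG. The edgeR log2 fold change, female over male, was 0.96 (SE 0.38) in TG, with an adjusted p of 0.203. (0.0276 before adjustment) In DRG it was 0.51 (SE 0.43, adjusted p = 0.692), and the difference between the ganglia in this sex effect was 0.40 (SE 0.59), with an adjusted p of 0.9998. (0.505 before adjustment)

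Over both sexes Esr1 was lower in TG than in DRG by a log2 fold change of -0.91 (SE 0.30), with an adjusted p of 0.233 (0.00683 before adjustment), and the 2 ganglia overlapped. Group means were 23.5 ± 10.5 CPM in female DRG, 16.5 ± 4.55 in male DRG, 14.4 ± 3.63 in female TG and 7.66 ± 1.99 in male TG (SD, n = 3), and the step between the last pair alone was larger than both SDs. Esr2 had 0 counts in all 6 female libraries, in male DRG 1 and in male TG 1 and 3. It had 2 counts in male DRG 2, which is under the floor, 21 in male DRG 3 (1.65 CPM) and 4 in male TG 2 (0.276 CPM). The gene did not pass the filter on low counts, so no test was made.

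**Figure D2:**
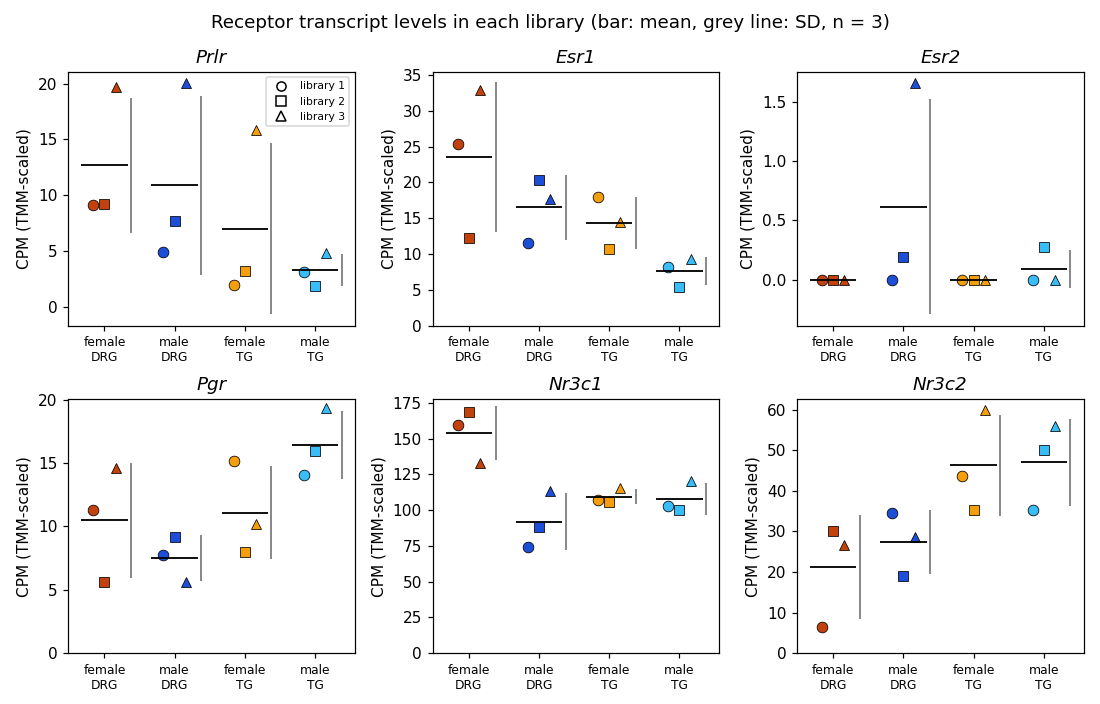
TMM-scaled CPM of each receptor in the 12 libraries, with circles, squares and triangles for the libraries numbered 1, 2 and 3 of a group, a bar for the group mean and a grey line for its SD (n = 3). Prlr is highest in the triangle of every group, all 6 Nr3c2 values in TG lie above all 6 in DRG, and the sexes are separate for Esr1 in TG and for Nr3c1 in DRG.

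Oestrogen-response genes had 12 members, and 0 of the 10 or 11 tested passed an adjusted p of 0.05 in any of the 3 comparisons, where 0% of all genes did so for sex in either ganglion and 0.964% between ganglia. The most abundant was Ctsd, the lysosomal protease cathepsin D, at 405 RPKM. Oxtr, the oxytocin receptor, came nearest to the threshold between ganglia. Its level in TG was 19.5, 10.7 and 16.9 CPM in females and 10.4, 15.1 and 11.001 CPM in males, against 4.76, 0 and 0.508 CPM in female and 0, 2.35 and 1.10 CPM in male DRG. All TG libraries were above all DRG libraries, with a log2 fold change of 3.30 (SE 0.78) and an adjusted p of 0.0529. The adjusted p was 0.00199 without female DRG 1, which had the highest DRG level, and ran up to 0.157 when other libraries were left out. Ltf, the iron-binding protein lactoferrin, had a mean level of 0.212 ± 0.273 CPM over the TG and 4.87 ± 3.24 CPM over the DRG libraries (SD, n = 6), with an adjusted p of 0.0694. In the sex comparisons Cxcl12, a chemokine, had the smallest p of this list, with log2 fold changes of 0.86 (SE 0.24, adjusted p = 0.154) in TG and 1.57 (SE 0.41, adjusted p = 0.307) in DRG. Igfbp4, a binding protein of insulin-like growth factors, had 0.83 (SE 0.33) in TG with an adjusted p of 0.200. Medians of the list were 0.52 in TG and 0.27 in DRG for female over male and 0.10 for TG over DRG. With the GC-length correction they were 0.19, 0.25 and -0.0312. DESeq2 called 1 gene of the list in each comparison. Of all genes it called 817 of 14009 for sex in TG, 348 of 13963 for sex in DRG and 333 of 14829 between ganglia.

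Pgr was detected in all 12 libraries. It had 11.3, 5.60 and 14.6 CPM in female DRG, 7.76, 9.19 and 5.59 CPM in male DRG, 15.1, 7.95 and 10.2 CPM in female TG and 14.0, 15.95 and 19.4 CPM in male TG. The sexes overlapped in both ganglia, and over both sexes the TG and DRG libraries overlapped too. The log2 fold change of TG over DRG was 0.60 (SE 0.32), with an adjusted p of 0.633. (0.0734 before adjustment) Female over male, it was -0.52 (SE 0.35, adjusted p = 0.404) in TG and 0.49 (SE 0.55, adjusted p = 0.781) in DRG. The difference between these sex effects was -1.05 (SE 0.63), with an adjusted p of 0.9998. (0.116 before adjustment)

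Of the other steroid-related receptors, 11 of 13 symbols were in the files and all 11 were tested, with 0 passing an adjusted p of 0.05 in any comparison, beside the same shares of all genes (0% for sex in each ganglion and 0.964% between ganglia). Pgrmc1, a membrane-associated haem protein named for progesterone binding, was the most abundant at 85.5 RPKM, above all of the nuclear receptors. Its level was 121 ± 7.46 CPM in female and 187 ± 43.8 CPM in male TG (SD, n = 3), a log2 fold change of -0.59 (SE 0.23) with an adjusted p of 0.203. Paqr6, a membrane progestin receptor, had 18.2 ± 6.96 CPM in female and 9.86 ± 2.10 CPM in male TG, a log2 fold change of 0.94 (SE 0.38) and an adjusted p of 0.211. The related Paqr5 averaged 59.1 ± 21.0 CPM over the TG and 85.9 ± 18.3 CPM over the DRG libraries (SD, n = 6), with an adjusted p of 0.522. List medians were 0.33 in TG and -0.17 in DRG for female over male, and 0.06 for TG over DRG. With the GC-length correction the TG median was 0.15 and that between ganglia -0.0016, and without TMM the DRG median was 0.0045.

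Nr3c1 spans chr18:39570199-39650955 on the minus strand of mm9. It was the steadiest of the 5 receptors tested, with a coefficient of variation over the 12 libraries of 23.5%, against 38.7% for Pgr, 43.0% for Nr3c2, 50.6% for Esr1 and 77.9% for Prlr. In female DRG it had 159.9, 169 and 133 CPM, and in male DRG 74.1, 88.5 and 114 CPM. In female TG it had 107, 105 and 116 CPM, and in male TG 103, 100.2 and 121 CPM. All female DRG libraries were above all male DRG libraries, whereas the sexes overlapped in TG. Libraries did not overlap, with females higher, in 7.84% of all genes tested in DRG. The log2 fold change, female over male, was 0.74 (SE 0.28) in DRG, with an adjusted p of 0.349 (0.0211 before adjustment), and 0.07 (SE 0.21, adjusted p = 0.886) in TG. The difference between these sex effects was -0.72 (SE 0.33), with an unadjusted p of 0.0431 (1.97% of all genes were under 0.05) and an adjusted p of 0.9998. By criteria after those of the study, with CPM in place of its RPKM (a fold above 2, an unadjusted p under 0.05 and a mean above 1 CPM in the higher sex), 0 of the 5 receptors were called in either ganglion, and 0 with a mean above 1 RPKM. The criteria with CPM were met by 5.14% of all genes with females higher and 2.24% with males higher in TG, and by 2.01% and 2.93% in DRG. Over both sexes, TG and DRG differed in Nr3c1 by -0.13 (SE 0.17, adjusted p = 0.957).

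Nr3c2 was higher in each TG library than in each DRG library. It had 43.6, 35.3 and 60.0 CPM in female TG and 35.2, 49.99 and 56.0 CPM in male TG. In female DRG it had 6.54, 30.2 and 26.8 CPM, and in male DRG 34.7, 18.9 and 28.6 CPM. The gap was narrow, since the lowest TG library (35.2 CPM) was close to the highest DRG library (34.7 CPM), and female DRG 1 was far below the others. Such separation with TG higher was seen in 0.998% of all genes tested. The log2 fold change of TG over DRG was 0.95 (SE 0.30), with an adjusted p of 0.211 (0.00563 before adjustment, where 8.83% of all genes were under 0.05). Female over male, the log2 fold change was 0.02 (SE 0.28, adjusted p = 0.978) in TG and -0.37 (SE 0.50, adjusted p = 0.826) in DRG, and the difference between these was 0.34 (SE 0.60, adjusted p = 0.9998). The sexes overlapped in both ganglia.

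**Figure D3:**
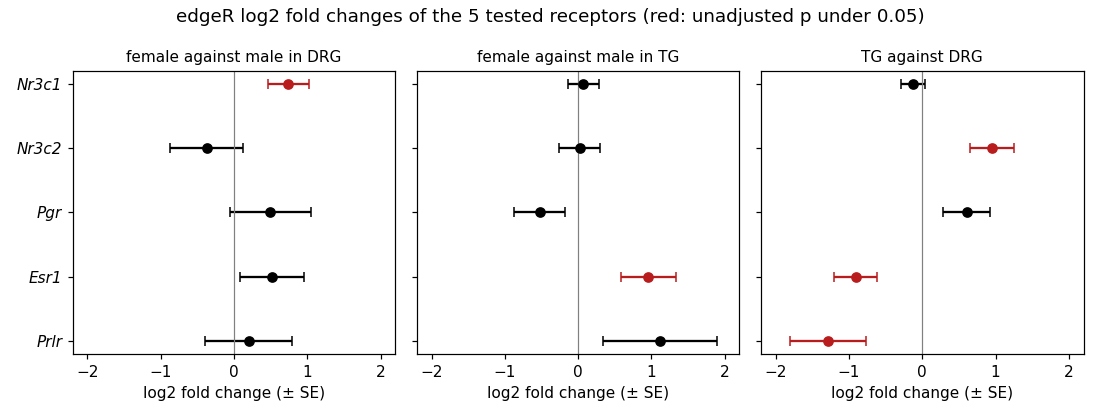
edgeR log2 fold changes with SE for the 5 tested receptors in female over male in DRG, female over male in TG, and TG over DRG, with unadjusted p under 0.05 in red. Nr3c1 in DRG (0.74), Esr1 in TG (0.96) and, between ganglia, Nr3c2 (0.95), Esr1 (-0.91) and Prlr (-1.29) are red, and none of these passes an adjusted p of 0.05.

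The counts of Nr3c1 and Nr3c2 were also set against each other in the same library, where the scaling between libraries drops out. The log2 ratio of Nr3c1 to Nr3c2 was 1.30, 1.58 and 0.95 in female TG and 1.54, 1.002 and 1.11 in male TG. In female DRG it was 4.60, 2.48 and 2.31, and in male DRG 1.09, 2.22 and 1.99. Male DRG 1 lay within the TG range and the other 5 DRG libraries lay above it. The mean was 1.24 ± 0.27 in TG and 2.45 ± 1.16 in DRG (SD, n = 6), a difference of -1.20 with p = 0.0130 (two-sided exact permutation test over 924 splits, smallest possible p 0.00216). Without female DRG 1 the difference was -0.77, with an exact permutation p of 0.0260. Leaving out each other library in turn gave -1.47 to -1.14. In the libraries numbered 1 and 2, with 4 per ganglion, it was -1.24 and did not pass (exact permutation p = 0.114).

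Among 16 glucocorticoid-response genes, 15 were tested and 1 passed the test between ganglia, Sgk1, where 0.964% of all genes did. Sgk1 encodes a kinase that acts on ion channels and transporters and is a standard target of both Nr3c1 and Nr3c2. Its level was 85.0, 94.2 and 91.3 CPM in female TG and 109, 111 and 87.0 CPM in male TG. In female DRG it was 56.0, 41.8 and 53.7 CPM, and in male DRG 59.6, 62.8 and 48.8 CPM. All TG libraries were above all DRG libraries, with means of 96.2 ± 11.1 and 53.8 ± 7.60 CPM (SD, n = 6). The log2 fold change was 0.84 (SE 0.17) and the adjusted p was 0.0171. The call was lost without female DRG 2 (adjusted p = 0.0588), female TG 2 (0.0550), male TG 1 (0.0630) or male TG 2 (0.0744). No other gene of the list passed, and the median over the 15 was 0.08 beside -0.01 over all genes. Mt2, a metallothionein, had 0.78 (SE 0.23, adjusted p = 0.162), and Fkbp5, a cochaperone of the receptor and a common measure of its activity, had -0.04 (adjusted p = 0.9998).

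**Figure D4:**
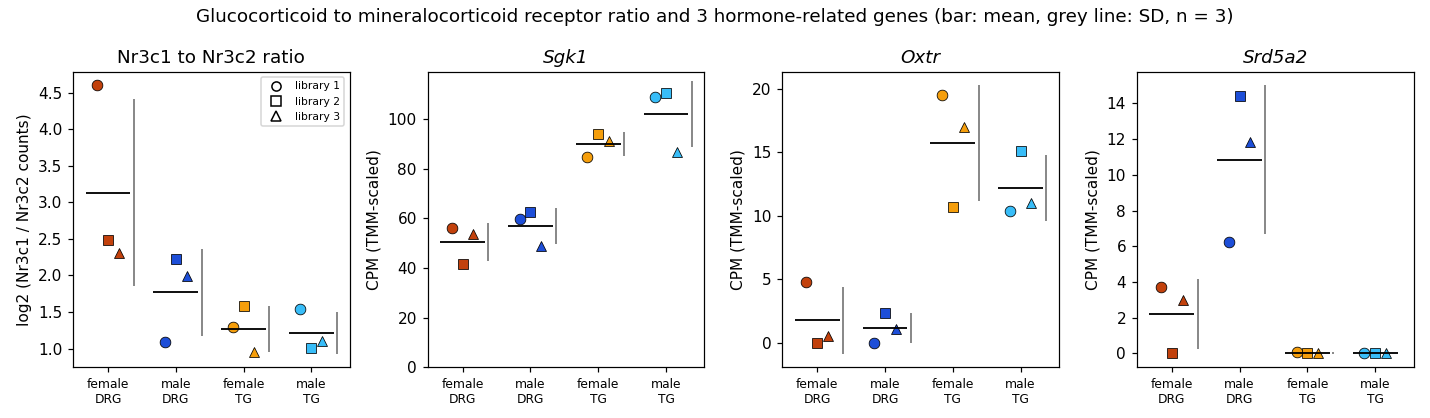
The log2 ratio of Nr3c1 to Nr3c2 counts and the TMM-scaled CPM of Sgk1, Oxtr and Srd5a2 in each library, with a bar for the group mean and a grey line for the SD (n = 3). Sgk1 and Oxtr are higher in every TG library than in every DRG library, and Srd5a2 has 1 read in TG.

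In the sex comparisons 0 of the 15 glucocorticoid-response genes passed an adjusted p of 0.05, where 0% of all genes did in either ganglion. Female over male, 13 were positive in TG and 12 in DRG, with medians of 0.41 and 0.43 beside 0.05 and 0.02 over all genes. DESeq2 called 1 of them in TG, where it called 817 of 14009 genes. Klf9, a transcription factor, had log2 fold changes of 0.83 (SE 0.30, adjusted p = 0.181) in TG and 0.98 (SE 0.33, adjusted p = 0.317) in DRG. Per1, a clock gene, had 1.16 (SE 0.33, adjusted p = 0.154) in TG. Tsc22d3, the glucocorticoid-induced leucine zipper protein and the most abundant of the list at 87.0 RPKM, had the opposite sign, with -0.77 (SE 0.30, adjusted p = 0.355) in DRG.

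Steroid-metabolizing enzymes were in part not detected in these fractions. Of 20 listed genes, 19 were in the files. Cyp17a1, Cyp19a1 (aromatase, which makes oestrogens), Hsd11b2 (which inactivates glucocorticoids) and Hsd3b1, Hsd3b2 and Hsd3b6 had 0 counts in all 12 libraries, at floors of 0.195 to 0.399 CPM. The Hsd3b genes are a family of similar copies, so reads that align to several of them may not be counted. Hsd11b1, which regenerates active glucocorticoid, averaged 0.875 ± 0.996 CPM over the TG and 1.88 ± 1.72 CPM over the DRG libraries (SD, n = 6). Hsd17b12, an enzyme of long-chain fatty acid and steroid metabolism, was the most abundant at 93.3 RPKM.

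Srd5a2, a steroid 5-alpha-reductase, passed the test between ganglia. It was the 1 of 9 enzymes tested to do so, where 0.964% of all genes did. It had 31, 0 and 35 counts in female DRG and 67, 154 and 150 counts in male DRG, against 1 count in female TG 1 and 0 in the other 5 TG libraries. Female DRG 2 was at 0 like TG, and all male DRG libraries were above all female ones, as in 9.6% of all genes tested for sex in DRG. The summed counts per read in genes were 463 times higher in DRG (95% exact interval 82.7 to 18343, for counting error only), and the adjusted p was 0.00424. The other type, Srd5a1, was present in both ganglia, with 11.5 ± 3.74 CPM in TG and 9.93 ± 3.05 CPM in DRG and an adjusted p of 0.984. For the sexes, 0 of 7 enzymes passed in TG and 0 of 8 in DRG, where 0% of all genes did in either ganglion. Female over male, Hsd17b12 had log2 fold changes of -0.71 (SE 0.25, adjusted p = 0.175) in TG and -0.65 (SE 0.27, adjusted p = 0.380) in DRG. H6pd, which supplies the cofactor of Hsd11b1, had 1.04 (SE 0.45, adjusted p = 0.228) in TG, and Akr1c14, which makes neuroactive steroids, had 1.03 (SE 0.43, adjusted p = 0.386) in DRG.

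The chaperones and coregulators of the steroid receptors were all expressed, and 0 of 16 passed an adjusted p of 0.05 in any of the 3 comparisons, beside 0% of all genes for sex in each ganglion and 0.964% between ganglia. By DESeq2 2 of them passed for sex in TG and 1 in DRG, where 817 of 14009 and 348 of 13963 of all genes did. Hsp90ab1, the chaperone that holds the free receptors, was the most abundant at 480.0 RPKM. Ptges3, the HSP90 cochaperone p23, had female over male log2 fold changes of -0.98 (SE 0.33, adjusted p = 0.167) in TG and -1.08 (SE 0.34, adjusted p = 0.312) in DRG. The coactivator Med1 had 0.72 (SE 0.27, adjusted p = 0.338) in DRG. Medians were 0.32 in TG and 0.34 in DRG for female over male and -0.01 for TG over DRG, and with the GC-length correction 0.15, 0.19 and -0.14.

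**Figure D5:**
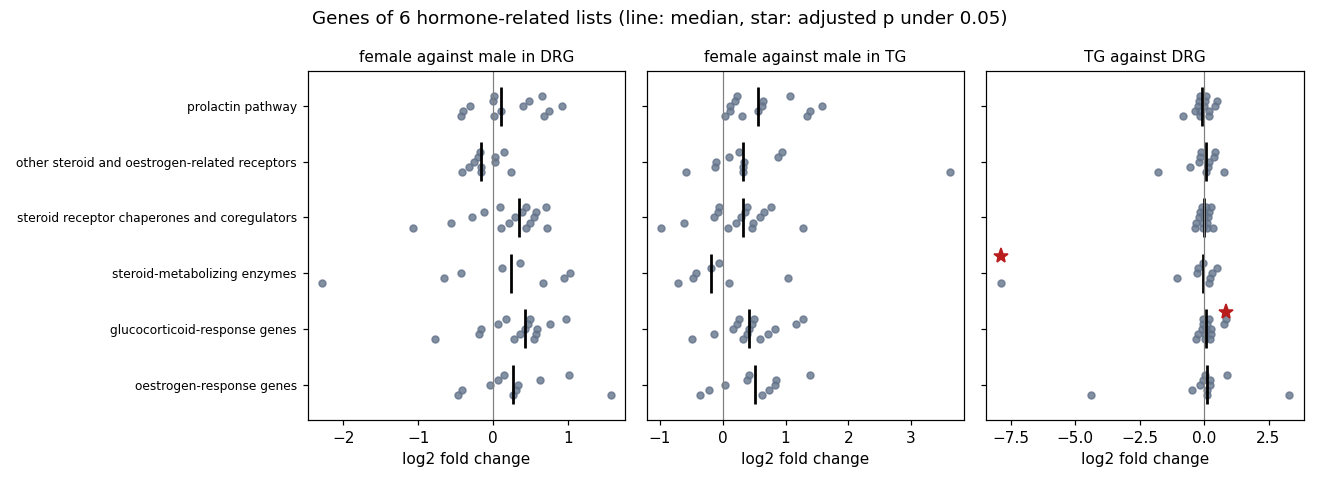
Log2 fold changes of the tested genes of the 6 hormone-related lists (dots) in female over male in DRG, female over male in TG, and TG over DRG, with a line at each list's median and a star at genes with an adjusted p under 0.05. The stars are Srd5a2 and Sgk1, both between ganglia, and all 13 prolactin pathway genes lie above 0 in TG (10 of 13 after the GC-length correction).

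Markers of non-neuronal cells also had different values in the sexes in the same libraries. All 6 macrophage markers had positive female over male values, with a median log2 fold change of 1.04 in TG and 0.83 in DRG. Their summed CPM was 146 to 301 in female and 58.99 to 137 in male TG, and 80.3 to 216 in female and 65.6 to 88.0 in male DRG. The 6 fibroblast markers were all positive too, with medians of 0.85 in TG and 0.70 in DRG, and sums of 1030 to 1676 CPM in female against 618 to 1405 CPM in male TG and of 1460 to 2191 CPM in female against 1027 to 1612 CPM in male DRG. Medians of the Schwann cell and satellite glia markers were 1.01 and 0.30 in TG and 0.53 and 0.14 in DRG, with 4 of 5 Schwann cell markers positive in each. Endothelial and mural cell markers had medians of 0.23 and 0.41 in TG and 0.98 and 0.76 in DRG. For the 9 neuron markers the medians were 0.02 and -0.15. None of these markers passed an adjusted p of 0.05. The share of reads outside annotated genes also moved with sex, with 46.4% to 50.4% in female and 38.2% to 42.6% in male DRG, which did not overlap, and 43.5% to 49.1% in female and 37.6% to 47.9% in male TG. The part of the markers and of this share in the sex values of the receptors and lists was not tested. Between ganglia the neuron markers had a median of -0.09, the macrophage markers of 0.52 and the fibroblast markers of -0.42.

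Genes with the pattern over the 12 libraries most like that of each receptor were read out by the root-mean-square difference of log2 CPM centred on each gene's mean. Nr3c1 was nearest to Obfc1 (0.120), Pogk (0.158) and Ssrp1 (0.160), where its own spread about its mean was 0.317. For Nr3c2 (own spread 0.811) the nearest were Fam81a (0.291), Zfp438 (0.313) and Gabra2 (0.341), the last a subunit of a GABA receptor. For Pgr (0.557) they were Lmln (0.246), Zfp365 (0.303) and Cacna2d3 (0.317), a calcium channel subunit. Esr1 (0.689) was nearest to 5330417C22Rik (0.350), Sdc1 (0.362) and Scn10a (0.371), the sodium channel that marks nociceptors. For Prlr (1.11) they were Scg2 (0.527), Lcorl (0.566) and Prkcq (0.610). These are descriptions over 12 libraries and 14829 genes, with no test.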

How the data were processed

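RNA of Percoll-enriched neuron fractions was sequenced after removal of ribosomal RNA. The authors aligned reads to mm9 with TopHat2, and the deposited files hold raw counts per gene symbol from HTSeq, with no normalization and 5 summary lines that are not genes. Reads outside annotated genes were 37.6% to 50.4% of reads in and outside genes. The counting annotation, strand setting and tool versions were not given in the sources used here. Reads that align to several places may be left out, and genes with close copies are then counted too low.

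Groups and numbers came from the sample titles. The tests used edgeR 4.0.16 in R 4.3.3 on all genes that passed filterByExpr, scaled by TMM, with quasi-likelihood F-tests and Benjamini-Hochberg adjustment across every tested gene. The sexes were compared in each ganglion with its 6 libraries (female over male). TG against DRG and the difference between sex effects were contrasts of the 4 group means fitted to the 12 libraries together. A gene was called at an adjusted p under 0.05. The study used DESeq, and DESeq2 1.42.0 was an alternative. Sex-check genes were left out of the shares of all genes in the sex comparisons. CPM was scaled by TMM factors, and errors are SD. RPKM used exon unions of GENCODE vM1, which matched 21679 symbols (95.9%), 52 of them by an older symbol. The receptor ratio used a pseudocount of 0.5 reads. The floor was 3 counts, and floors and intervals cover counting error only, since amplified reads carried no molecular identifiers. The tests were checked on simulated counts with the same spread setting for every gene in a comparison. These counts held no outlier library and no trend with GC content or length, so the check does not cover such features.

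Genes named in the text were the 6 receptors, the 2 genes with the smallest unadjusted p under 0.05 per list and comparison, the most abundant gene of each list and the 3 most alike patterns per receptor. Of the genes so chosen, 1 is left out here. Jak2, Ptpn11, Fkbp5, Srd5a1, Prl and the enzymes at or near 0 were named after their values were seen, as were the promoter windows. The receptors, lists and markers were chosen with earlier results of these data known.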

Additional observations from a re-analysis of the deposited data

Results flagged for a closer look

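In 14 sets of 6 libraries, one per receptor and ganglion with the receptor ratio, the highest or lowest library was compared with its nearest neighbour by Dixon's ratio (95% critical value 0.625), a limit that chance passes in about 1 of 20 sets. There were 3 values past it. Prlr in female TG 3 was at 15.8 CPM, where the next TG library had 4.81 CPM (ratio 0.793). Esr2 in male DRG 3 was at 1.65 CPM, where the next DRG library had 0.188 CPM (ratio 0.887). Esr2 in male TG 2 was at 0.276 CPM, which is 4 counts, with all other TG libraries at 0. With such ties any count above 0 gives a ratio of 1, so this flag carries no information. The chance rate does not hold for Esr2, which was at 0 in most libraries.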

How the results depend on the processing

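The count of receptors called at an adjusted p under 0.05 was 0 in each of the 4 comparisons and stayed at 0 in 69 fits with other settings, DESeq2, other scaling, no filter, the GC-length correction and the study's criteria (fold above 2) among them. It was 1 in 5 fits. With the libraries numbered 1 and 2 only, Esr1 passed in the TG sex comparison (1.08, adjusted p = 0.0333) and Nr3c1 in the DRG sex comparison (1.05, adjusted p = 0.0148). With a replicate block Nr3c2 passed between ganglia (1.06, adjusted p = 0.0153), as it did with the GC-length correction added to the block (0.97, adjusted p = 0.0253). Over fits without 1 library the count between ganglia ran from 0 to 1, the 1 being Prlr without female TG 3 (-1.996). The ratio of Nr3c1 to Nr3c2 kept its direction, with -1.24 and an exact permutation p of 0.114 in the libraries numbered 1 and 2, and -1.20 with an exact sign-flip permutation p of 0.0625 in the paired differences (lower in TG in 5 of 6 pairs). Over fits without 1 library it ran from -1.47 to -0.77. The cause of these changes was not tested. No label pairs the samples by number, and the numbers were not taken to do so. Within a sex, deviations of TG and DRG libraries with the same number correlated by 0.0277 to 0.216. Those with different numbers correlated by -0.197 to 0.0977. Between sexes, libraries with the same number correlated by -0.0984 to 0.168. Whether libraries with the same number share an animal or a batch was not tested.

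Without TMM the median over every tested gene went from 0.05 to 0.16 in the TG and from 0.02 to 0.19 in the DRG sex comparison, so values are relative to the TMM scale. With the replicate block 1 of the other receptors, 2 glucocorticoid-response genes and 3 oestrogen-response genes passed between ganglia, where 562 of all genes did, and the median of the oestrogen-response genes in the DRG sex comparison was 0.0835. Of the values of single genes, 379 kept their sign and their side of the threshold and 17, none of them called, turned their sign. For Nr3c2 in the TG sex comparison (0.02) the values were -0.000626 by DESeq2, -0.000638 with its size factors, -0.0256 with the GC-length correction, -0.0691 with the block added, -0.10 in libraries 1 and 2, -0.0233 in the 12-library model, and -0.25 to 0.17 without 1 library. Without 1 library, Prlr ran from -0.33 to 1.53 and Nr3c1 from -0.0198 to 0.16 in the TG sex comparison, Prlr from -0.26 to 1.04 and Nr3c2 from -0.72 to 0.0482 in the DRG sex comparison, and the differences between sex effects from -0.55 to 1.33 for Prlr and from -0.0803 to 0.69 for Nr3c2. In libraries 1 and 2 the Prlr difference was -0.57. Between ganglia, Srd5a2 passed in all settings, Sgk1 in all but the 4 given with it, and Oxtr passed with no TMM (adjusted p = 0.0498), with no filter (0.00257), with the block (0.000604), with the block and GC-length correction (0.00145) and without female DRG 1.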

Other observations

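In every library the summary lines list more alignments that were not unique than reads in genes. Those alignments ran from 13195420 in male TG 3 to 21206143 in male TG 2. In female DRG 1 they were 14167393, against 7511765 reads in genes. Some genes with similar copies were at 0 throughout: the globin genes Hba-a1, Hba-a2, Hbb-b1 and Hbb-b2 as well as Hsd3b1, Hsd3b2 and Hsd3b6 had 0 counts in all 12 libraries. Whether reads with several alignments belong to these genes was not tested.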
